A study of Mus musculus with 16 samples.

Results

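The genes that repair DNA and answer to DNA damage were examined for acetylation of histone H3 at lysine 27 (H3K27ac), which marks promoters and enhancers in use, in bone marrow-derived macrophages (BMDMs) treated with an inhibitor of the PARP enzymes. The set held 34 named genes of 21938 protein-coding genes, and its members were followed through every peak within 10 kb of any annotated transcript start. The set covered 7 roles, with 8 genes of base excision and single-strand break repair, 3 of homologous recombination, 2 of the Fanconi anaemia pathway, 5 of end joining, 11 of damage sensing and checkpoint control, 1 of mismatch repair and 4 of nucleotide excision repair. The BMDMs were primary cells from C57Bl6 mice of 8 to 12 weeks of age, matured in medium with 20% serum and LCCM. The Control cells received neither agent, and the IFNγ cells received interferon gamma at 100 ng/mL for 1 h. The PJ34 cells received this PARP inhibitor at 20 µM, which the treatment description places 1 h ahead of the cytokine, and the IFNγ+PJ34 cells received both. There were 8 ChIP samples and 8 input samples, 2 of each per condition, and the authors merged each pair of ChIP replicates into 1 peak list. No value below therefore has a replicate error, no test was possible, and a difference between lists cannot be told apart from a difference between libraries.

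PARP-1 binds broken DNA and attaches chains of ADP-ribose to itself and to nearby proteins, which draws XRCC1, LIG3 and other factors to the break. Base excision repair removes damaged bases, nucleotide excision repair cuts out bulky lesions, and mismatch repair corrects copying errors. Breaks of both strands are rejoined directly by end joining or copied from the sister chromatid by homologous recombination, and the Fanconi anaemia proteins act on links between the strands. The kinases ATM and ATR report the damage to CHEK1, CHEK2 and p53, and p53 in turn drives Cdkn1a, an inhibitor of the cell cycle, and Mdm2, which marks p53 for destruction. Most of these proteins are used by every dividing cell, while H3K27ac reports on the activity of their promoters and not on the amount of protein.

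The lists were checked against marker genes of macrophages and other cells. Each of 10 macrophage marker genes, such as Csf1r and Adgre1, had a promoter peak in each list, whereas none of 5 T cell markers did. Of 5 markers each, 1 B cell gene, 0 to 1 neutrophil genes, 0 to 1 fibroblast genes and 2 to 3 dendritic cell genes had a promoter peak. Within 10 kb of a start, 3 to 4 T cell genes and 2 to 4 B cell genes had a peak. The lists held 43533 peaks in Control, 44090 in PJ34, 40708 in IFNγ and 42960 in IFNγ+PJ34. The median width was 732 bp in Control and 634 to 647 bp in the others. Since the lists differed as a whole, each peak was placed by its score percentile within its own list, where 100 is the strongest peak and the score rises with -log10 p. Where the lists are not named, 4 values stand in the order Control, PJ34, IFNγ and IFNγ+PJ34. The strongest peak of all 10 macrophage genes ranked lower in PJ34 than in Control (median shift -3.86 percentile points) and lower in IFNγ than in Control (-6.59), and in IFNγ+PJ34 against IFNγ 7 were higher and 3 lower (4.69). The part of these shifts in the results for repair genes was not tested.

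Many member promoters were shared with a neighbour, so that a peak there could not be assigned to a single gene. For 13 of the 34 members another protein-coding start lay within 1 kb, from 21 to 489 bp away, and all 13 neighbours were read in the opposite direction. The bases between the starts of the 4 closest pairs are shown on the plus strand of GRCm38 (mm10), because H3K27ac there cannot be given to either gene. In each list a single peak covered the stretches beside Lig4, Fancd2 and Apex1, while at Xpc peaks lay on both sides and covered the stretch at most in part. Capitals mark a CCAAT box (CCAAT) or a GC box (GGGCGG) on either strand, and coordinates give the starts on either side.
Lig4 to Abhd13, chr8:9977686-9977707: acgggctaccgtagcatgaa
Fancd2 to Emc3, chr6:113531652-113531682: gtaacgtcacgccacggcgcggctttgat
Xpc to Lsm3, chr6:91515888-91515928: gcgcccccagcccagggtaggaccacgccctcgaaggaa
Apex1 to Osgep, chr14:50924893-50924968: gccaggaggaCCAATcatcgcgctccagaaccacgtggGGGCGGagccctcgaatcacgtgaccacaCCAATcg
Between Lig4, the ligase of end joining, and Abhd13 lay 20 bases, and between Fancd2 and Emc3 lay 29. Between Xpc, which recognises bulky lesions, and Lsm3 lay 39 bases with a GC content of 71.8%. The stretch between Apex1, an endonuclease of base excision repair, and Osgep held 74 bases and was the only one of the 4 with a motif. For 17 members no other protein-coding start fell within 10 kb.

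The 150 bases before the 5′ end of 4 members are shown because their peaks set them apart below, with GC boxes in capitals and each read in the direction of the gene. Ercc1 and Ung had the largest downward and upward differences in rank between IFNγ+PJ34 and IFNγ. The strongest Trp53bp1 peak moved in opposite directions in the comparisons, and Xrcc5 had no peak.
Ercc1, chr7:19344628-19344777, + strand: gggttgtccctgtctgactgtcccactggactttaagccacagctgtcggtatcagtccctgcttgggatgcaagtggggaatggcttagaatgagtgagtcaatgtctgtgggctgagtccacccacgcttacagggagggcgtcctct
Ung, chr5:114130236-114130385, + strand: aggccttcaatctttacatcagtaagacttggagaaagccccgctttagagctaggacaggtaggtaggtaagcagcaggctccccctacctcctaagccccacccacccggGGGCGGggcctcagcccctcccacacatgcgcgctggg
Trp53bp1, chr2:121271408-121271557, - strand: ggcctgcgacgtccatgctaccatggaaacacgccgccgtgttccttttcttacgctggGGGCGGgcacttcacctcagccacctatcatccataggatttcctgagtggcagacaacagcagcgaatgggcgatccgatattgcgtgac
Xrcc5, chr1:72307271-72307420, + strand: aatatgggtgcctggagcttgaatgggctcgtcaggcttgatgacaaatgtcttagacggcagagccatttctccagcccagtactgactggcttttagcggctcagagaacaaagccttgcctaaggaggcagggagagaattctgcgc
No GC box, CCAAT box, ETS core (CCGGAA) or E2F site was found in these windows of Ercc1 and Xrcc5, while Ung and Trp53bp1 had 1 GC box each. The strongest Ercc1 peak lay inside the gene and did not touch the bases printed in any list. No Ung peak touched the bases printed for Ung in any list. In the RefSeq promoter windows of 300 bases (GRCm38.p6), 27 members matched with 32 promoters. There the Ercc1 window, which is placed further into the gene and reached its strongest peak, held 1 ETS core and 1 GC box, and the Xrcc5 window held 1 CCAAT box. The Xrcc5 window had a GC content of 48.0% against a median of 59.3% over the member promoters and 61.3% over all 11921 promoters touched by a Control peak, and 39.0% of its bases were soft-masked as repeat in the genome sequence. The part of either property in the missing peak was not tested.

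The letters of several common promoter motifs were counted in the 32 windows on both strands. An ETS core was found in 14 member promoters (43.8%), against 30.1% of promoters touched by a Control peak and 14.9% of all 32851 promoters. E2F sites (TTTCGCGC, TTTGGCGC or TTCCCGCC), the binding sequence of factors that time gene activity in the cell cycle, were in 4 promoters (12.5%), against 5.87% and 2.96%. CCAAT boxes were in 16 (50.0%), against 37.2% and 37.4%, and GC boxes in 20 (62.5%), against 64.4% and 35.7%. A p53 element was in 1 promoter, that of Cdkn1a (3.12%), against 0.0252% and 0.0731%, and it was the only match in the 83 peak regions near members. It is printed because it lies inside a peak in all 4 lists, with the bases that match the element in capitals and the spacer in lower case.
Cdkn1a p53 element, chr17:29090906-29090937, + strand: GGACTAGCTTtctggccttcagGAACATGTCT
It spans 32 bases with a spacer of 12 and begins at -73 bp from the nearest of the 4 Cdkn1a starts used here. A match of letters is not evidence of binding.

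Almost every repair gene carried H3K27ac at its promoter in all 4 lists. In each list, 33 of 34 members (97.1%, exact 95% interval 84.7 to 99.9%, counting error only) had a peak within 10 kb and also a promoter peak, defined as a peak that touches the 1 kb on either side of a start. Over all protein-coding genes, a peak within 10 kb was found for 57.3% in Control, 57.0% in PJ34, 55.9% in IFNγ and 56.6% in IFNγ+PJ34, and a promoter peak for 50.6%, 50.5%, 49.2% and 49.7%. The exception was Xrcc5, which encodes the Ku80 subunit that binds DNA ends in end joining. Its nearest peak was 52.1 kb from the start in Control, 52.4 kb in IFNγ and 23.2 kb in both PJ34 and IFNγ+PJ34. The nearest peaks with PJ34 were weak, at percentile 15.3 in PJ34 and 38.4 in IFNγ+PJ34. Xrcc6, the gene of its partner Ku70, had promoter peaks in every list. The members had 76 peaks in Control, 73 in PJ34, 71 in IFNγ and 72 in IFNγ+PJ34.

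Other genes of the pathway were also nearly all marked. Of 60 further repair genes that matched the annotation, such as Parp2 and Fen1, 59 had a peak in Control, PJ34 and IFNγ+PJ34 and 58 in IFNγ. Of 20 p53 target genes, such as Bax and Ccng1, 17 had a peak in each list.

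The strength of the peaks varied widely among members and less among the lists. The median percentile of the strongest peak within 10 kb was 82.7 in Control, 83.5 in PJ34, 80.0 in IFNγ and 74.5 in IFNγ+PJ34. The corresponding medians over all genes with a peak were 86.2, 87.1, 85.0 and 82.9, so that the members' median was the lower one in each list. As shown in the plot of percentiles by member, the 4 values of a gene lay close together for Mdm2, Apex1, Nbn and Lig3 and far apart for Ercc1, Trp53bp1 and Ung. Mdm2, Apex1, Nbn and Lig3 ranked near the top of each list, where a large difference in score spans few percentile points. The score of Lig3 was 428 in PJ34 and 215 in IFNγ+PJ34, at percentiles 98.6 and 94.5.

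**Figure D1:**
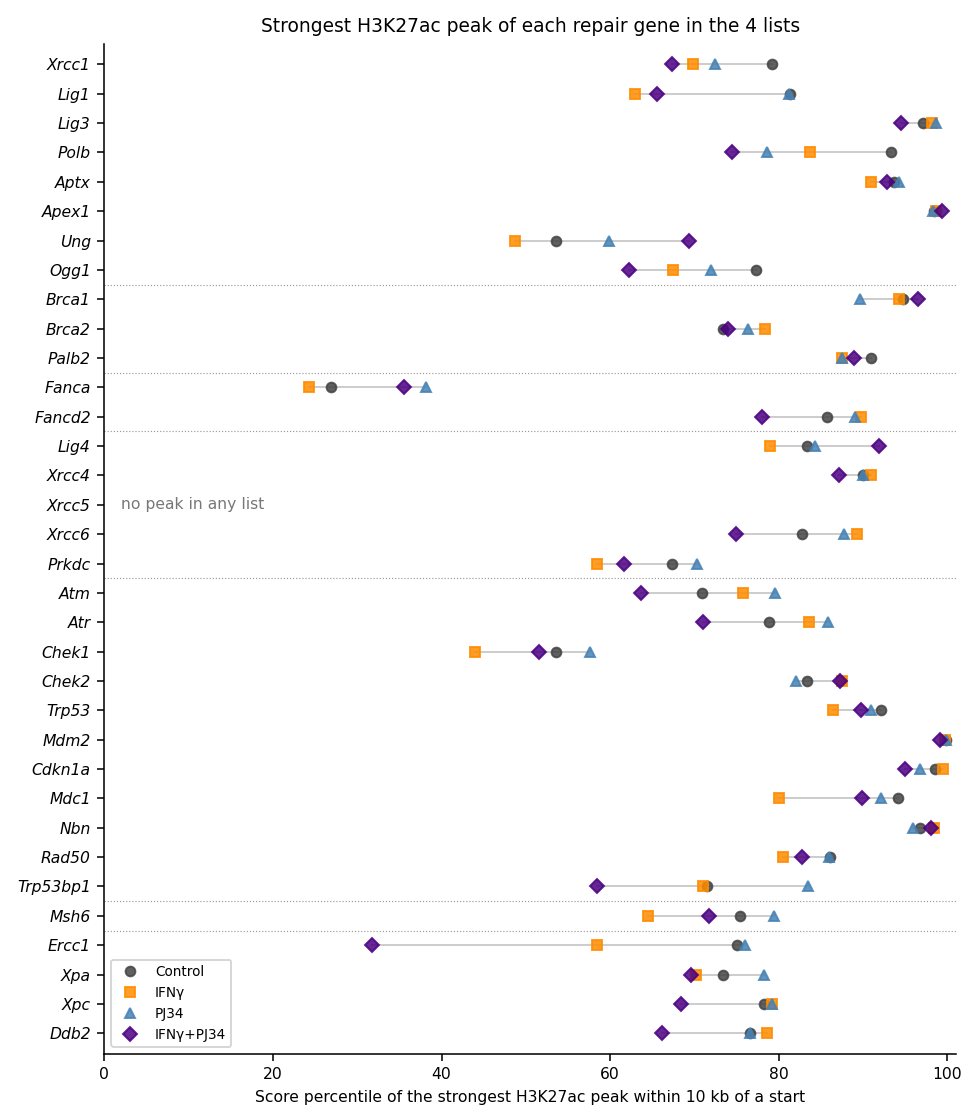
Score percentile (0 to 100 within each list) of the strongest H3K27ac peak within 10 kb of a start, for each of the 34 members in Control, IFNγ, PJ34 and IFNγ+PJ34. Each marker is 1 list, grey lines join the lowest and highest list, and dotted lines separate the 7 roles. Mdm2 lies between 99.1 and 99.8, Ercc1 spans 31.8 to 76.0, and Xrcc5 has no peak.

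Among the sensors and checkpoint genes, Mdm2 and Cdkn1a carried some of the strongest and widest peaks. The promoter peak of Mdm2 was at percentile 99.8 in Control, 99.8 in PJ34, 99.7 in IFNγ and 99.1 in IFNγ+PJ34, and was 5217, 6183, 5394 and 4227 bp wide. A second region lay upstream of Mdm2 at chr10:117714332-117722770, in intergenic sequence. There, a single peak of 8408 bp at percentile 91.5 was listed in Control and a peak of 8439 bp at 94.1 in PJ34. The IFNγ list held 2 peaks in this region, at 94.7 and 93.0, and the IFNγ+PJ34 list held 4 shorter peaks, at 79.7, 77.5, 72.5 and 68.4. Fold enrichment over background was 41.45 in Control, 41.94 in PJ34 and up to 41.93 in IFNγ, but at most 19.06 in IFNγ+PJ34. The upstream region of Mdm2 was thus both broken up and lower in the IFNγ+PJ34 list.

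The strongest Cdkn1a peak, in an intron of the gene, was at percentile 98.5 in Control, 96.7 in PJ34, 99.5 in IFNγ and 95.0 in IFNγ+PJ34. The separate peak over the first start, which contains the p53 element, had a different order. It was at 68.6 in Control, 52.9 in PJ34, 77.3 in IFNγ and 86.8 in IFNγ+PJ34, with fold enrichments of 12.04, 4.88, 12.18 and 25.87. It was therefore lowest with PJ34 alone and highest with both agents. A further Cdkn1a peak, with its summit at -9108 bp in Control, was at 88.9, 90.2, 93.2 and 91.5 and was found in all 4 lists.

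The strongest peaks of the kinase genes Atm and Atr were highest with PJ34 alone and lowest with both agents. A strongest peak higher in PJ34 than in Control and lower in IFNγ+PJ34 than in IFNγ was also common over all genes. It was found for 4659 of 11767 genes with a peak in every list and for 11 of 33 members. The share of all genes with the full order was not computed. The strongest Atm peak was at 70.9 in Control, 79.6 in PJ34, 75.7 in IFNγ and 63.6 in IFNγ+PJ34. Its summit lay in an intron of the neighbour Npat in each list. A promoter region inside Atm had another order, with its highest peak at 61.3 in Control, 48.6 in PJ34, 24.3 in IFNγ and 54.3 in IFNγ+PJ34. The strongest Atr peak was at 78.9, 85.8, 83.6 and 71.0. The strongest peak of Trp53bp1, whose product 53BP1 steers breaks towards end joining, was likewise highest with PJ34 and lowest with both agents. It was at 71.5 in Control, 83.5 in PJ34, 71.0 in IFNγ and 58.4 in IFNγ+PJ34. Its fold enrichment was 9.45, 22.74, 10.27 and 7.71. The peak covered the start in each list, at widths of 793 to 881 bp. The gene of p53 itself, Trp53, was steadier by percentile, at 92.1, 90.9, 86.4 and 89.8, with a peak 2801 to 3007 bp wide. Nbn and Rad50, members of the complex that senses broken ends, were at 95.9 to 98.4 and 80.5 to 86.1. Chek2 lay between 82.0 and 87.5, and Chek1, the effector kinase of ATR, was weaker, between 44.0 and 57.6. For Mdc1 the strongest peak was in an intron of its neighbour Tubb5, at 94.2 in Control, 92.1 in PJ34, 80.0 in IFNγ and 89.9 in IFNγ+PJ34.

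In nucleotide excision repair, each of the 4 genes was lowest in the IFNγ+PJ34 list. The same held for 16 of the 33 members (48.5%) and for 51.0% of 11767 genes with a peak in every list. Ercc1, a subunit of the nuclease that cuts on the 5′ side of the lesion, had a narrow peak at percentile 75.1 in Control, 76.0 in PJ34, 58.4 in IFNγ and 31.8 in IFNγ+PJ34. Its fold enrichment was 16.61, 12.33, 6.78 and 4.37, and its width 464, 480, 502 and 349 bp. Both lists with IFNγ were below both lists without it. Of the 11767 genes, 27.1% were lowest in IFNγ. The share of them with both IFNγ lists below the others was not computed. Xpc was at 78.3, 79.2, 79.2 and 68.4, and Ddb2, which recognises ultraviolet damage, at 76.6, 76.6, 78.6 and 66.2. Xpa was at 73.4, 78.2, 70.2 and 69.6, a difference of under 1 point between IFNγ and IFNγ+PJ34.

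In base excision repair, the members ranged from Apex1 at 98.3 to 99.4 and Lig3 at 94.5 to 98.6 down to Ung at 48.7 to 69.3. The strongest peak in the Apex1 window was in an exon of Pip4p1, with its summit 5727 bp from the start in Control, while the promoter peak shared with Osgep was at 87.8 in Control, 87.5 in PJ34, 81.6 in IFNγ and 94.1 in IFNγ+PJ34. Ung encodes the glycosylase that removes uracil from DNA, and its strongest peak in Control and PJ34 lay upstream in an exon of Alkbh2, with its summit at -2495 bp in Control. Its intragenic peak near the promoter was at 32.5 in Control, 32.8 in PJ34, 48.7 in IFNγ and 69.3 in IFNγ+PJ34. This peak was 314 bp wide in Control, 638 bp in PJ34, 779 bp in IFNγ and 1457 bp in IFNγ+PJ34. Both lists with IFNγ were above both lists without it, the reverse of Ercc1. For Polb, the polymerase that fills the gap, an intergenic peak with its summit at -4954 bp in Control was at 93.3 in Control, 76.0 in PJ34, 83.7 in IFNγ and 74.5 in IFNγ+PJ34. Its fold enrichment was 40.66, 8.67, 20.24 and 14.98, whereas the promoter peak of Polb was at 82.7, 78.6, 83.3 and 74.0. The upstream peak was thus strongest in Control and lower in each treated list. Lig1, the ligase of replication and long-patch repair, was at 81.3 in Control, 81.2 in PJ34, 62.9 in IFNγ and 65.6 in IFNγ+PJ34. Both IFNγ lists were again lower for Lig1. Over the 11767 genes with a peak in every list, the lowest list was IFNγ for 27.1% and IFNγ+PJ34 for 51.0%. Xrcc1, the scaffold drawn in by ADP-ribose, was at 79.2, 72.4, 69.8 and 67.3. Ogg1 was at 77.3, 72.0, 67.4 and 62.2, and Aptx between 90.9 and 94.3.

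**Figure D2:**
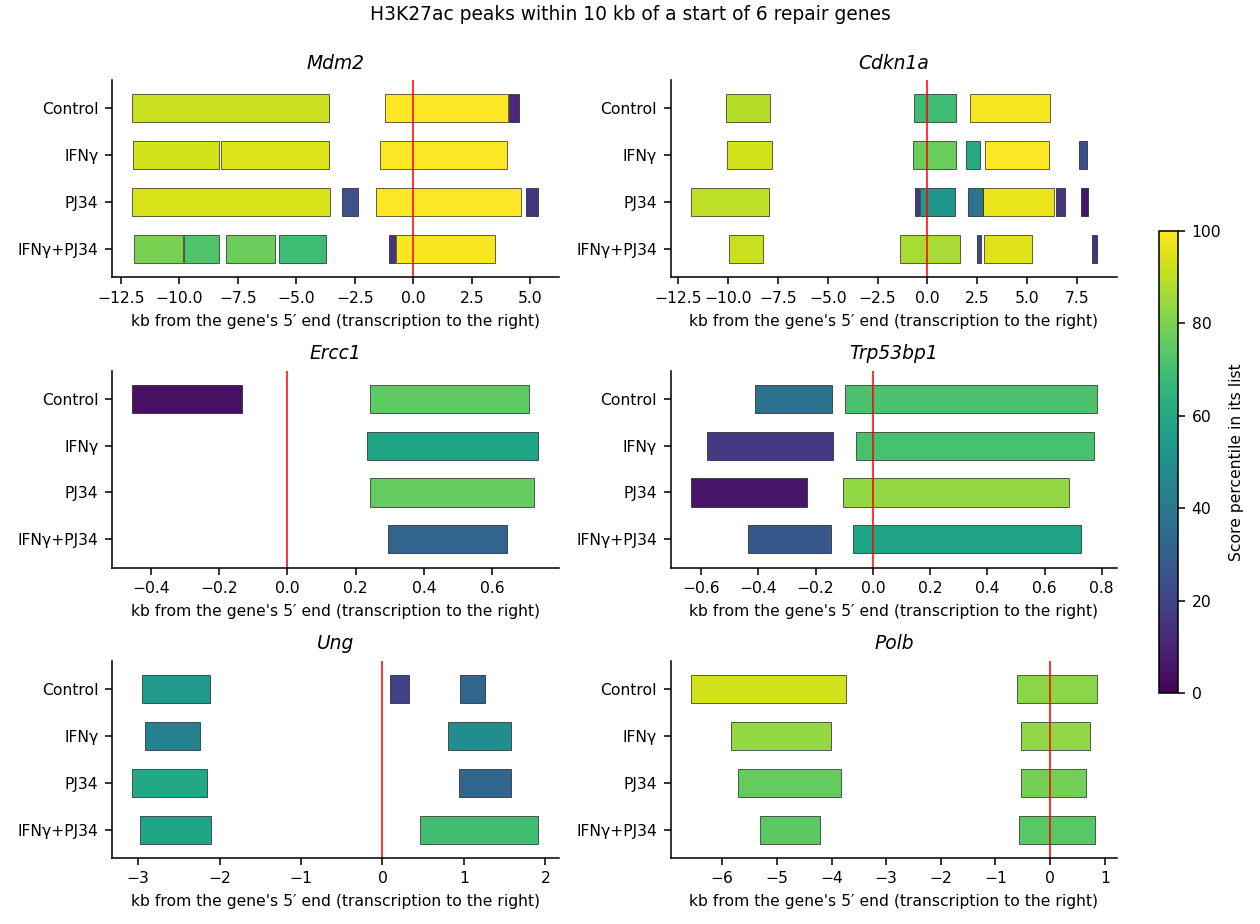
H3K27ac peaks within 10 kb of a start at Mdm2, Cdkn1a, Ercc1, Trp53bp1, Ung and Polb in the 4 lists, by distance in kb from the 5′ end of the gene (red line), with transcription to the right. Each bar is 1 deposited peak drawn to scale, and its colour is its score percentile within the list. The upstream Mdm2 region is 1 peak in Control and PJ34, 2 in IFNγ and 4 in IFNγ+PJ34.

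The genes of homologous recombination lay close together in percentile across the lists. Palb2 was at 87.5 to 91.0, Brca2 at 73.4 to 78.4 and Brca1 at 94.7 in Control, 89.6 in PJ34, 94.3 in IFNγ and 96.5 in IFNγ+PJ34. The Brca1 promoter is shared with Nbr1, whose start is 270 bp away. In the Fanconi anaemia pathway, Fancd2 was at 85.7, 89.1, 89.8 and 78.0. Fanca, a subunit of the core ligase complex, had the weakest strongest peak of the members in Control, IFNγ and PJ34, at 26.9, 24.3 and 38.2, and was at 35.5 in IFNγ+PJ34. In end joining, Lig4 was highest with both agents, at 83.4 in Control, 84.3 in PJ34, 79.0 in IFNγ and 91.9 in IFNγ+PJ34, and Xrcc6 was lowest there, at 82.7, 87.8, 89.3 and 74.9. Xrcc4 lay between 87.2 and 91.0, and Prkdc, the gene of the catalytic subunit activated by Ku, between 58.4 and 70.3. The mismatch repair gene Msh6 was at 75.4, 79.4, 64.5 and 71.7.

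To compare the rank of these peaks with and without PJ34, each PJ34 list was set against its partner without the inhibitor, over the 33 members with a peak in both. In PJ34 against Control the median shift was 0.649 percentile points (0.621 over 12235 genes). There 20 members were higher and 13 lower, against 7046 and 5189 of all genes. By the threshold of 10 points, 2 members were higher, Trp53bp1 by 11.9 and Fanca by 11.3 (6.06%, against 6.30% of all genes). Only Polb was lower, with a shift of -14.7 (3.03%, against 5.96%). The strongest peaks of Polb and Fanca were different peaks in the lists compared. The upstream Polb peak itself was at 93.3 in Control and 76.0 in PJ34, and the Fanca region found in all 4 lists was at 0.5 in Control and 38.2 in PJ34. The shares of members past the threshold were thus near the background or below it.

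In IFNγ+PJ34 against IFNγ more genes passed the threshold, among the members and over all genes. The median was -0.575 points (-1.16 over 11926 genes), with 14 members higher and 19 lower, against 4864 and 7062 of all genes. Higher by 10 points or more were 3 members, Ung by 20.6, Lig4 by 12.9 and Fanca by 11.2 (9.09%, against 10.1% of all genes). Lower were 8 members (24.2%, against 14.4%). These were Ercc1 with a shift of -26.7, Xrcc6 with -14.3, Atr and Trp53bp1 with -12.6, Ddb2 with -12.4, Atm with -12.1, Fancd2 with -11.8 and Xpc with -10.8. Of the 8, Ercc1, Ddb2 and Xpc are 3 of the 4 genes of nucleotide excision repair. Atm, Atr and Trp53bp1 are 3 of the 11 of damage sensing (27.3%, against 24.2% of all members). Xrcc6 belongs to end joining and Fancd2 to the Fanconi anaemia pathway. No gene of base excision repair (8 members), homologous recombination (3) or mismatch repair (1) was lower by 10 points or more. A difference between roles was not tested. Xrcc6, Atm, Fancd2 and Xpc have shared promoters, and in both lists the summit of the strongest peak lay in the neighbour for Atm (Npat), Fancd2 (Emc3) and Xpc (Lsm3) and in an exon of both genes for Xrcc6 and Desi1. Whether 8 of 33 differs from the background could not be tested on 1 list per condition. Fanca was the only member past the threshold in the same direction in both comparisons, and Trp53bp1 the only one past it in opposite directions.

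The other lists were counted in the same way. In PJ34 against Control, 3 of 59 further repair genes were higher by 10 points or more and 1 was lower, with a median shift of 1.38. In IFNγ+PJ34 against IFNγ, 5 of 58 were higher and 7 lower, with a median of -1.63. Of the p53 target genes, 0 of 16 were past the threshold in PJ34 against Control, with a median of 0.89, and 2 of 17 were higher and 2 lower in IFNγ+PJ34 against IFNγ, with a median of -1.97.

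**Figure D3:**
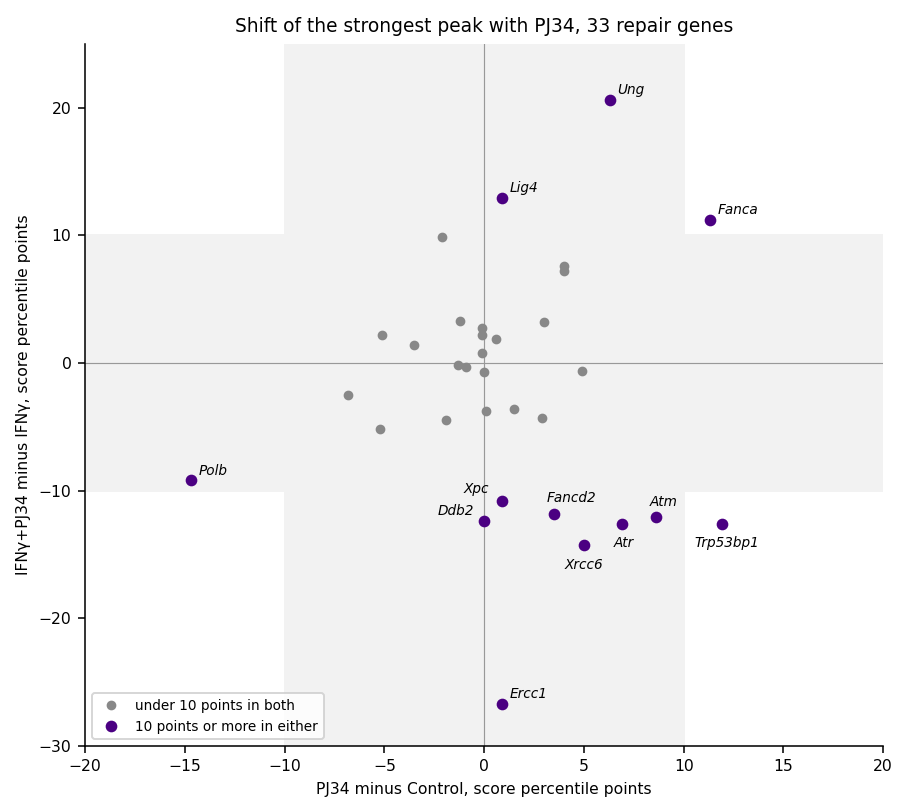
Difference in score percentile of the strongest peak for 33 members, PJ34 minus Control on the horizontal axis and IFNγ+PJ34 minus IFNγ on the vertical axis, in percentile points. Each point is 1 gene, the grey bands span 10 points either side of 0, and genes past 10 points in either comparison are named. Fanca lies past both bands at upper right, Trp53bp1 at lower right, and Ercc1 lowest at -26.7.

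The cytokine alone was read from IFNγ against Control, which shares its lists with the comparisons above. The median shift was -2.63 points (-1.29 over 12043 genes), and no member was higher by 10 points or more (4.10% of all genes). The median was -0.054 with lists of equal size, -0.181 when ranked by fold enrichment and -0.557 with peaks within 1 kb. Lower were 4 members (12.1%, against 14.0%): Lig1 with -18.4, Ercc1 with -16.7, Mdc1 with -14.2 and Msh6 with -10.8. With only peaks at q under 0.01 kept and ranked anew, 9 members were lower by 10 points or more. With only the higher-scoring 50% of each list kept, 10 members were lower by 10 points or more. In that setting 10 points span fewer peaks than in the full list. Shares over all genes were not computed for these 2 settings. The strongest peak was narrower in IFNγ for 25 of the 33 members and wider for 8. Over all genes it was narrower for 8791 of 12043 and wider for 3240. The median log2 ratio of widths was -0.20 (-0.16 over all genes). The strongest peak was wider by 1.5-fold or more for 1 member (3.96% of all genes) and narrower for 2 (19.8% of all genes).

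Peak width differed past the threshold for few members. In PJ34 against Control the median log2 ratio of widths was 0.00 (-0.04 over all genes). There 17 members were wider and 16 narrower, against 5218 and 6997 of 12235 genes. Wider by 1.5-fold or more were 2 members (6.06%, against 4.90% of all genes), Ddb2 from 924 to 1902 bp and Prkdc from 1136 to 2021 bp. Narrower by as much were 2 members (6.06%, against 12.2%), Ogg1 from 1623 to 965 bp and Polb from 2837 to 1191 bp, the latter between different peaks. In IFNγ+PJ34 against IFNγ the median was -0.05 (-0.06 over all genes). Only Ung was wider, from 779 to 1457 bp (3.03%, against 9.32%). Narrower were 5 members (15.2%, against 14.3%): Ddb2 from 1564 to 448 bp, Xrcc4 from 2233 to 895 bp, Xpa from 1224 to 683 bp, Polb from 1829 to 1094 bp and Atr from 1512 to 945 bp. For several of these the width followed the way a region was divided. Ddb2 had a single promoter peak in PJ34 and in IFNγ but 2 in each of the other lists. Xrcc4 had 1 promoter peak in Control, IFNγ and PJ34 but 2 in IFNγ+PJ34, of 895 and 840 bp, on either side of the Xrcc4 start. Prkdc had 3 peaks in IFNγ, a single one in PJ34 and 2 in each of the others.

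**Figure D4:**
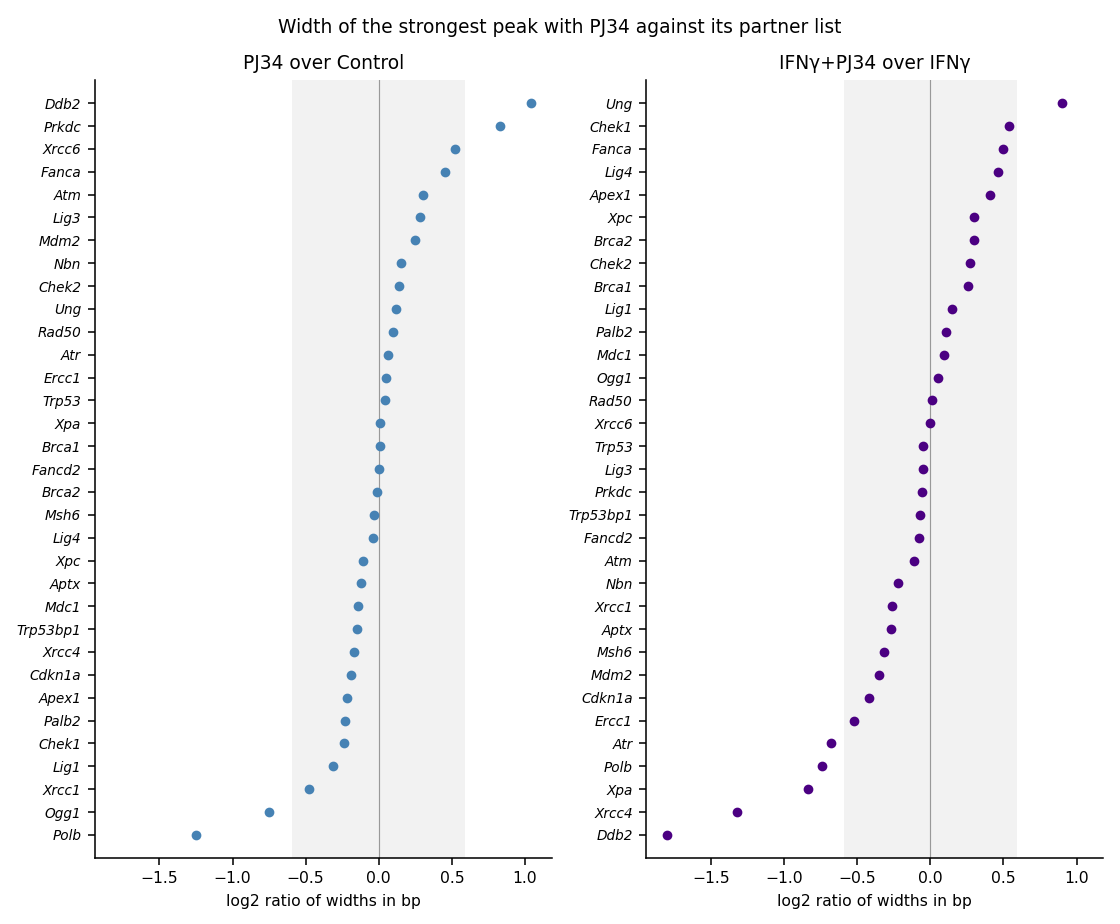
log2 ratio of the width in bp of the strongest peak for 33 members, PJ34 over Control on the left and IFNγ+PJ34 over IFNγ on the right, each sorted by its ratio. Each point is 1 gene and the grey band spans 1.5-fold either way. Ddb2 is the widest member at left (1.04) and the narrowest at right (-1.80).

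Peaks found in only one list of a pair were counted for each comparison. Of 73 member peaks in PJ34, 8 had no overlapping Control peak (11.0%, interval 4.85 to 20.5%, against 13.1% over all genes). Of 76 in Control, 11 were absent from PJ34 (14.5%, 7.45 to 24.4%, against 17.0%). Of 72 in IFNγ+PJ34, 5 were absent from IFNγ (6.94%, 2.29 to 15.5%, against 17.4%), and of 71 in IFNγ, 8 were absent from IFNγ+PJ34 (11.3%, 4.99 to 21.0%, against 16.0%). Several peaks belong to 1 gene, so the intervals are no test against the share over all genes. For the cytokine, 4 IFNγ peaks were absent from Control (5.63%, against 9.83%) and 14 Control peaks from IFNγ (18.4%, against 22.6%). The median percentile of the absent peaks was 15.3 to 31.8 in the PJ34 comparisons, and their median width 321 to 340 bp. Over all genes these were 15.3 to 21.9 and 331 to 372 bp.

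In the PJ34 comparisons each absent peak, except that of Fanca in Control, lay beside a stronger peak of the same gene. Those of PJ34 absent from Control belonged to Mdm2, Cdkn1a, Mdc1, Msh6 and Atm, all at or below percentile 25.3, and 6 of them were in PJ34 alone. Those of Control absent from PJ34 included a promoter peak of Fanca (percentile 26.9, 275 bp), its strongest in Control, of Ercc1 (4.0, 321 bp), of Ung (19.9, 239 bp) and of Brca2 (19.9, 302 bp). Of the peaks in IFNγ+PJ34 absent from IFNγ, the strongest was in an intron of Abhd13, at percentile 56.4 and -7694 bp from the Lig4 start. It lay beside a further peak at 31.8, and both were in IFNγ+PJ34 alone. A promoter-side Msh6 peak, at 47.2 in Control, 46.0 in PJ34 and 43.6 in IFNγ+PJ34, was missing from IFNγ. Of the IFNγ peaks absent from IFNγ+PJ34, 2 were in introns of Ogg1, at 34.3 and 24.3, and both had a partner in Control and PJ34.

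Merging the peaks of all lists gave 83 regions near members, of which 55 (66.3%) held a peak in all 4 lists, against 55.3% of 24423 regions near any protein-coding gene. Of the 50 regions within 1 kb of a start, 44 (88.0%) were in all 4 lists, against 81.6% of 12705 such regions of all protein-coding genes. Of the 33 regions farther out, 11 (33.3%) were in all 4, against 26.7% of 11718. A single list held 16 of the 33, against 5167 of the 11718. Regions in a single list numbered 9 in Control (10.8%, against 9.32% near any gene), 6 in PJ34 (7.23%, against 7.09%), 2 in IFNγ (2.41%, against 2.58%) and 3 in IFNγ+PJ34 (3.61%, against 6.59%). The regions farther out that held a peak in all 4 lists included those upstream of Mdm2, Cdkn1a, Polb and Mdc1 and that in the Pip4p1 gene beside Apex1.

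**Figure D5:**
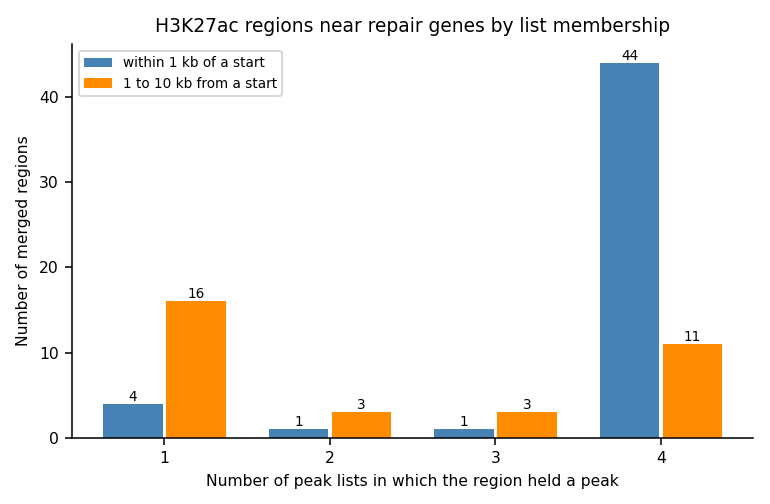
Number of merged H3K27ac regions near the members by the number of peak lists (1 to 4) that held a peak there, for regions within 1 kb of a start (blue, 50 regions) and regions 1 to 10 kb from a start (orange, 33 regions). Bars give counts. Of the regions near a start 44 are in all 4 lists, and of those farther out 11 are.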

How the data were processed

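H3K27ac ChIP-seq peak lists of the 4 conditions were used. According to the methods of the study and the labels, the authors aligned reads to mm10 with Bowtie, filtered them with Samtools and Picard, called relaxed peaks with MACS at p = 0.01 in each replicate against input, and kept peaks present in both replicates. The deposited columns used were the score, the fold enrichment (a ratio) and the −log10 p and −log10 q values, all as the authors' files give them. The deposited summit is an offset from the peak start. The lists hold no read counts, so depth is unknown. A list per condition leaves no replicate error, and intervals are exact Clopper-Pearson 95% intervals that cover counting error only.

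Starts came from GENCODE M21 basic transcripts of 21938 protein-coding genes. Peaks were assigned within 10 kb of any start, and scores were ranked within each list with ties at their mean rank, which makes low percentiles coarse. Shifts of 10 points and width ratios of 1.5 were counted. All 34 members may be named, with full values where a peak was missing, differed from its partner list, or was among the largest shifts. Scripts used Python 3.11.15, pandas 2.3.3 and scipy 1.17.1. The counts of absent and narrower peaks were tested on a copy of the Control list with planted changes. The members and gene lists were chosen with earlier results of these data known.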

Additional observations from a re-analysis of the deposited data

Results flagged for a closer look

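The strongest Trp53bp1 peak, by score percentile, was higher by 11.9 points in PJ34 against Control and shifted by -12.6 points in IFNγ+PJ34 against IFNγ. It was picked out because the shifts had opposite directions and both passed 10 points. Of 11767 genes with a peak in all 4 lists, 1.79% had the same pattern. With 1 list per condition, the difference between the comparisons was not tested.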

How the results depend on the processing

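No paired analysis was possible because the replicates of a condition share 1 peak list, which also left no replicate to omit. Of 256 recomputed values on presence and the PJ34 comparisons, 217 stayed within 1.5 times the count or inside the interval given for the result. A reversal of sign could be called only for a median whose interval lay on 1 side of 0. No median of the PJ34 comparisons was of this kind, so none could be called reversed. For IFNγ against Control, 89 of 110 stayed and 21 moved. Only its median log2 width ratio had an interval on 1 side of 0 (-0.26 to -0.08), and this median did not reverse.

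Within 1 kb, 3.92% of PJ34 peaks were absent from Control and 1.92% of IFNγ+PJ34 peaks from IFNγ, 0 members were lower by 10 points in PJ34 against Control and 1 was narrower. Within 25 kb, 100% of members had a peak in PJ34 and in IFNγ+PJ34, 1 was higher and 2 were lower in PJ34 against Control, and 2 were wider in IFNγ+PJ34 against IFNγ. In the higher-scoring 50% of each list, 0.00% of PJ34 peaks lacked a Control partner and 3.92% of Control peaks a PJ34 partner. The peaks kept were ranked anew, so that 10 points there spanned fewer peaks than in the full list. On that scale 5 members were higher and 4 lower in PJ34 against Control. In the same setting 0 were wider in IFNγ+PJ34 against IFNγ. Among the 16 members with a peak and no other start in the window, 2 were higher, 1 lower and 2 narrower in PJ34 against Control, and in IFNγ+PJ34 against IFNγ 0 were wider, 4 narrower, and the median log2 width ratio was -0.29. These counts rest on fewer members by construction. With a partner peak allowed within 1 kb, the absent shares were 4.11% for PJ34 peaks in Control, 3.95% for Control peaks in PJ34 and 4.23% for IFNγ peaks in IFNγ+PJ34. In PJ34 against Control, 1 member was higher when ranked by -log10 p, 2 were lower when ranked by fold enrichment, and with promoter peaks alone 0 were lower and 1 narrower. By a shift of 20 points, 0 members were higher and 0 lower in PJ34 against Control, and 1 was higher and 1 lower in IFNγ+PJ34 against IFNγ. By width percentile, 9 members were narrower by any amount in PJ34 against Control, compared with 16 by width in bp. By covered bp, 0 were wider in PJ34 against Control, and 2 were wider and 3 narrower in IFNγ+PJ34 against IFNγ. At a width ratio of 2, 1 was wider and 1 narrower in PJ34 against Control, and 0 were wider and 2 narrower in IFNγ+PJ34 against IFNγ. Shares over all genes were not computed under these settings. Apart from the change of scale with new ranking, the cause of these differences was not tested. Counts of 5 or fewer move easily past 1.5 times.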
